A study of Mus musculus with 36 samples.

Results

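The colon of wild-type (WT) mice was compared between day 15 and day 7 of a protocol that leads to colon tumors. The comparison rests on 8 of the 36 arrays of the series, the 4 whose sample titles read WT and day 15 and the 4 that read WT and day 7, and it was made over all 17097 genes with a named probe set. WT mice of 6 to 8 weeks had been injected with azoxymethane (AOM), a carcinogen that alkylates DNA, before drinking water with 3% dextran sulfate sodium (DSS), which injures the colon lining. DSS was planned in 3 cycles, each of 5 days of DSS and 14 days of plain water. The sample titles of both groups read AOM-DSS. The labels do not say where days 7 and 15 fall within a cycle, nor how much DSS had been drunk by then. The 4 arrays of untreated WT mice are given as a reference level, and mice without the receptor gene Il17rc (KO), 4 arrays at each of the days, enter at the end. The untreated and the KO mice were of 6 to 8 weeks too. The KO arrays of both days are also labelled AOM-DSS, with the same planned DSS cycles. Each sample was total RNA of minced whole colon on 1 Affymetrix HT MG-430 PM array. The labels do not state how many mice each sample came from, so a p-value here reflects only how these samples spread, in part perhaps for technical reasons. In RNA from whole tissue, fewer cells of a type and less RNA per cell cannot be told apart.

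The colon epithelium is renewed from dividing cells at the base of the crypts, and DSS strips it so that lumen bacteria reach the tissue below. Neutrophils, monocytes and later lymphocytes enter, and cytokines of the IL-6, IL-1 and IL-17 families make epithelial and stromal cells produce acute-phase and antimicrobial proteins. Surviving crypt cells then divide to cover the wound while matrix is broken down and laid down again.

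Values are the deposited intensities of the array, on a linear scale, and are listed in the order of replicates 1, 2, 3 and 4. Depth does not apply to arrays, so the number of arrays sets the precision, together with dim signals: the median probe set of an array was at 14 to 16. Differences are log2 of day 15 over day 7 with the standard error (SE) of the limma model, and a gene is said to have risen or fallen where the p-value of limma, adjusted over all genes by Benjamini-Hochberg, was below 0.05. "Held in all 8 fits" means that the call stayed when each of the 8 arrays was left out in turn. Those fits still took the spread from all groups of the series, so they are a mild check. With the 8 WT arrays alone, 28 of the calls picked for naming stayed and 63 were lost. With the letter of the sample title code as a block, 52 stayed and 39 were lost. With the replicate number as a block, 4 stayed and 87 were lost.

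The arrays were first compared with markers of their tissue. Markers of colon epithelium were bright in all 8 arrays, with the carbonic anhydrase gene Car1 at 5865, 6615, 6118 and 6203 at day 7 and 5339, 1911, 3970 and 2517 at day 15. Day 7 replicates 1 and 4 held transcripts of squamous epithelium, which lines the anal canal, and its keratin Krt5 was near background in the other 6. The squamous keratin Krt5 was at 817, 17, 18 and 205 at day 7 and 20, 17, 16 and 21 at day 15, and the summed intensity of all 20 squamous markers was 1043 to 21847 at day 7 and 808 to 1337 at day 15. All 20 had negative differences (median -2.33, or 0.01 once arrays with Krt5 above 100, called squamous-rich from here on, were left out of all groups), and none passed the adjusted test of limma, against 6 at an unadjusted p below 0.05. Of all 36 arrays, 7 are squamous-rich: WT day 7 replicates 1 and 4, untreated WT replicates 1 and 4 (Krt5 at 6043 and 2199), the arrays labelled KO day 7 replicates 1 and 2 (4230 and 1006) and 1 KO tumor array. Of the 4 untreated arrays used as reference below, 2 are thus squamous-rich, with a list sum of up to 76020. Day 15 replicate 4 stood apart by its neutrophil transcripts: S100a8, a calcium-binding protein abundant in neutrophils, was at 220, 14, 13 and 52 at day 7 and 490, 869, 192 and 5585 at day 15. It also had the lowest day 15 sums of absorptive colonocyte genes (28394, against 39999 to 50259) and goblet cell genes (23773, against 39271 to 45770). Its sum of collagen and matrix genes was the highest (61283, against 13656 to 24888). The part of this make-up in the differences below was not tested. Day 7 replicate 4 lay between the other arrays of its day. Among the other 3 arrays, 193 genes with a mean log2 value above 5 spread by more than 2 log2 units. At each of these genes, day 7 replicate 4 fell inside their range. Its log2 difference from the mean intensity of the others had an SD of 0.27 over these genes. This SD does not show a constant offset. For the other 7 arrays the same SD was 0.80 to 2.53 and the share of such genes inside the range 25.9 to 96.7%. Of all 36 arrays, KO day 7 replicate 2 was the remaining array with all such genes inside (159 of 159, SD 0.52). Whether these arrays hold RNA of the same mice as the others of their group was not tested, so the main counts are also given without day 7 replicate 4.

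**Figure D1:**
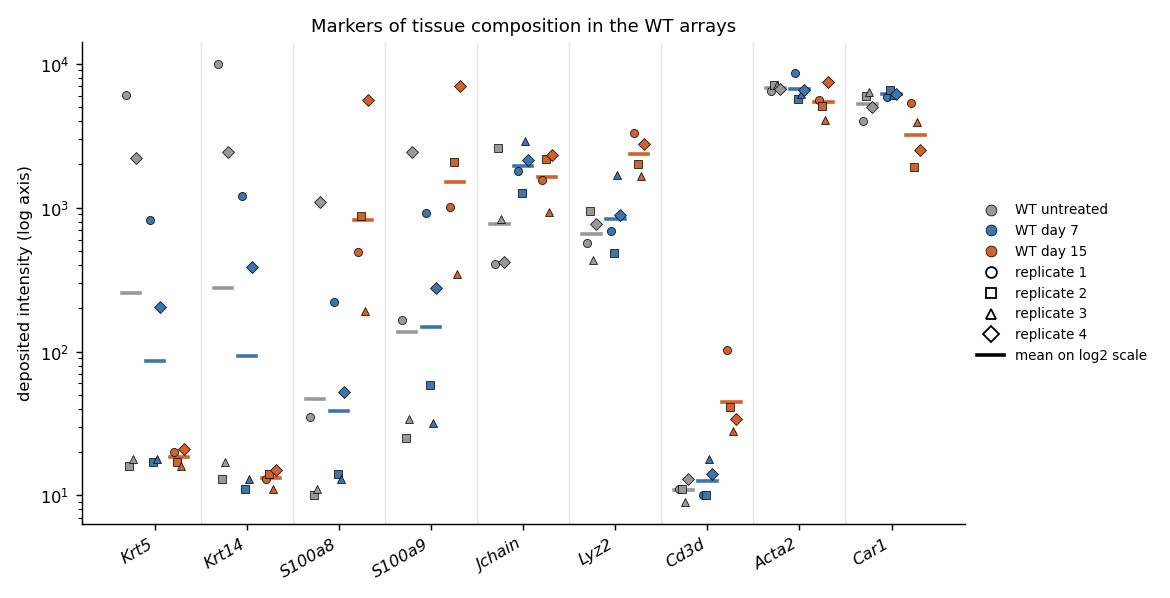
Deposited intensity (log axis) of 9 marker genes in the 4 untreated, 4 day 7 and 4 day 15 WT arrays, with the replicate given by the symbol and the mean on the log2 scale as a bar. Krt5 and Krt14 mark squamous epithelium and are bright in replicates 1 and 4 of both the untreated and the day 7 arrays, S100a8 and S100a9 mark neutrophils and are brightest in day 15 replicate 4 (5585 and 7059), and the smooth muscle actin Acta2 and the colonocyte gene Car1 are bright in all arrays.

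Between day 7 and day 15, 494 of 17097 genes passed the test (2.89%). Of these, 304 rose (1.78% of all genes) and 190 fell (1.11%), so 61.5% of the calls were rises. These shares over all genes are the reference for the list counts below, and 1 call says little about its list. The balance changed with the arrays used: without the squamous-rich arrays 275 genes passed, 133 higher and 142 lower at day 15 (48.4% rises), and 184 of them are among the 494. All 494 kept their sign in that fit. It keeps only replicates 2 and 3 of WT day 7. Where a call ended there, fewer arrays and less squamous tissue cannot be told apart. Log2 differences above 2 were found in 57 called genes and below -2 in 15, and the median over all genes was -0.03. The arrays of the 2 days did not overlap for 360 of the called genes, against 6.98% of all genes (4.72% higher and 2.26% lower at day 15). The calls rest on the same arrays, so a larger share among called genes follows from the choice. Without normalization between arrays, 540 genes passed and 75.6% of them rose. The count was 299 without day 7 replicate 4 (187 rises, 112 falls), of which 289 are among the 494, and all 494 kept their sign. It was 223 without day 15 replicate 4 (151 rises, 72 falls), 287 without day 7 replicate 2, 300 without day 15 replicate 2 and 850 without day 15 replicate 3. With the spread taken from the 8 WT arrays alone, in place of all 36, 71 genes passed. In all 8 fits that each left out 1 array, 147 of the 494 genes passed (98 rises, 49 falls).

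Set beside the untreated arrays, the called genes were counted by where their groups lay. For 149 of the 304 rises, all 4 day 15 arrays lay above all 4 untreated arrays, against 3.55% of all genes. For 88 of them, all 4 day 7 arrays lay below all 4 untreated arrays, against 4.71% of all genes, and 2 genes met both conditions. Of the 190 falls, 72 had all day 15 arrays below all untreated arrays (3.16% of all genes), and 13 had all day 7 arrays above them (1.76%). These counts were not tested. The genes were called from the same day 7 and day 15 arrays, so larger shares than among all genes follow in part from the choice. The untreated arrays enter the fit through the estimate of the spread, which is shared by all groups. They also enter the normalization between arrays and the choice of each gene's probe set.

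Some of the genes that copy DNA rose. Of 35 measured DNA replication genes, 15 rose, none fell and 20 did not pass (median 0.63, all 35 positive, 0.02 to 2.14). At 29 of the 35, all day 7 arrays lay below all untreated arrays, and at 5 all day 15 arrays still did. The summed intensity of the list was 2495 to 2986 at day 7, 3657 to 6158 at day 15 and 5446 to 6943 in untreated arrays. Mcm4, a subunit of the MCM helicase that unwinds DNA, was at 35, 37, 41 and 42 at day 7 and 131, 235, 163 and 288 at day 15, with 142 to 246 in untreated arrays. Every day 15 array was thus far brighter than every day 7 array, a difference of 2.14 ± 0.24 (adjusted p = 1.59e-06). Mcm6, another subunit of the ring, was at 81, 64, 74 and 92 at day 7 and 154, 317, 249 and 303 at day 15. It rose by 1.53 ± 0.21 (adjusted p = 6.34e-05) without overlap between the days. Cdt1 loads the helicase onto origins and was at 127, 99, 91 and 119 at day 7 and 206, 415, 255 and 290 at day 15. Its rise of 1.26 ± 0.16 had adjusted p = 2.49e-05. Fen1, the nuclease that trims Okazaki fragments, was at 14, 18, 20 and 25 at day 7 and 48, 54, 44 and 94 at day 15 and rose by 1.47 ± 0.24 (adjusted p = 0.000392). Uhrf1, which keeps DNA methylation on newly copied strands, was at 19, 15, 10 and 14 at day 7 and 27, 79, 70 and 66 at day 15, with the lowest day 15 array still above every day 7 array. It rose by 1.87 ± 0.31 (adjusted p = 0.000645), and the calls of these 5 genes held in all 8 fits, also without the squamous-rich arrays (highest adjusted p = 0.00298, for Uhrf1). Members that did not pass included the histone mRNA binding protein Slbp (0.19 ± 0.13, adjusted p = 0.487), the clamp loader subunit Rfc4 (0.35 ± 0.23, 0.44) and thymidylate synthase, Tyms (0.51 ± 0.21, 0.199). The 15 calls became 7 without day 15 replicate 2 and 9 without day 15 replicate 4.

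Promoters were searched for letters bound by E2F, a family of transcription factors that switch on genes of S phase. The letters TTTGGCGC or TTTCGCGC, on either strand, occurred in the RefSeq promoter of 12 of the 31 replication genes that had one (38.7%). The share was 1.45% of the 13605 tested genes with a promoter. Of the 13 called genes among the 31, 7 had these letters. Each promoter spans 250 bases before to 50 after a transcript start. The 200 bases before the start (GRCm38.p6) are shown for Mcm6, as a replication gene with a strong call and 3 matches there, with the matches in capitals. The window ends where the annotated gene begins. The first bases of the matches lie at -110, -106 and -47 from the start, and the first and second overlap. A match describes the letters only.
Mcm6, chr1:128359706-128359905, minus strand: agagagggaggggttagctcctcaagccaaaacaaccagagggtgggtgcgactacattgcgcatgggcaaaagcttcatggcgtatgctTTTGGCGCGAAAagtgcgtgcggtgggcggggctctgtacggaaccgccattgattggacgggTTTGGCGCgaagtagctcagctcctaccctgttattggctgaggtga

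Some genes of mitosis rose as well. Of 34 measured, 11 rose, none fell and 23 did not pass (median 0.87, all 34 positive, 0.15 to 1.68). All 34 had every day 7 array below every untreated array, and 18 had every day 15 array below them too. The summed intensity of the list was 1560 to 2393 at day 7, 1779 to 4896 at day 15 and 5752 to 8656 in untreated arrays. Top2a, the topoisomerase that untangles chromosomes, was at 64, 84, 51 and 80 at day 7 and 116, 309, 316 and 326 at day 15, with 325 to 600 in untreated arrays. Replicate 1 of day 15 was the lowest of its group and still above all day 7 arrays, and the rise was 1.68 ± 0.29 (adjusted p = 0.000852). Cdk1, the kinase that starts mitosis, was at 78, 125, 98 and 106 at day 7 and 117, 362, 323 and 324 at day 15. Here day 15 replicate 1 lay inside the day 7 range and the other 3 well above it, and the rise was 1.22 ± 0.26 (adjusted p = 0.00654). Bub1, a checkpoint kinase at the kinetochore, was at 8, 8, 9 and 11 at day 7 and 11, 28, 40 and 57 at day 15 and rose by 1.61 ± 0.35 (adjusted p = 0.00785), from a day 7 level near background. Prc1, which bundles the microtubules of the dividing cell, was at 25, 42, 27 and 27 at day 7 and 42, 121, 100 and 121 at day 15 and rose by 1.39 ± 0.31 (adjusted p = 0.00894). The calls of these 4 genes held in all 8 fits. Without the squamous-rich arrays, Top2a (adjusted p = 0.00763) and Bub1 (0.0408) passed, and Cdk1 (0.077) and Prc1 (0.0874) did not. The kinase gene Pbk rose by 1.67 ± 0.37 (adjusted p = 0.00876). The call of Pbk was lost without day 15 replicate 2 (adjusted p = 0.0522). The proliferation marker Mki67 was at 190, 280, 135 and 217 at day 7 and 174, 424, 491 and 466 at day 15, a difference of 0.78 ± 0.27 that did not pass (adjusted p = 0.111). Cyclin A2, Ccna2, had 0.90 ± 0.27 (adjusted p = 0.0681) and the ubiquitin ligase component Ube2c 0.56 ± 0.27 (adjusted p = 0.263). The call of Pbk ended without the squamous-rich arrays (adjusted p = 0.0605). The 11 calls became 5 without day 15 replicate 2, 6 without day 15 replicate 4 and 27 without day 15 replicate 1, and 2 without the squamous-rich arrays.

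The mitotic genes share other letters. The motif TTTGAA is known as the CHR and bound by repressor complexes outside of mitosis. It occurred on either strand in 22 of 29 promoters (75.9%), against 15.7% of the 13605 genes. CCAAT was in 21 of 29 (72.4%), against 42.3%. Of the 9 called mitotic genes with a promoter, 6 had the CHR letters and 7 had CCAAT. Whether the letters go with the calls was not tested. The 200 bases before the start of Top2a and Cdk1, as the mitotic genes of smallest p, carry the CHR letters, in capitals here, with first bases at -179 and -23 in Top2a and at -71 and -15 in Cdk1.
Top2a, chr11:99024190-99024389, minus strand: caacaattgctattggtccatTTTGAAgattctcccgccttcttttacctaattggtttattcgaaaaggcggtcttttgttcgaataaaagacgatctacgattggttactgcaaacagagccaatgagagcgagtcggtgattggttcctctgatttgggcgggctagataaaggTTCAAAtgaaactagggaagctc
Cdk1, chr10:69352913-69353112, minus strand: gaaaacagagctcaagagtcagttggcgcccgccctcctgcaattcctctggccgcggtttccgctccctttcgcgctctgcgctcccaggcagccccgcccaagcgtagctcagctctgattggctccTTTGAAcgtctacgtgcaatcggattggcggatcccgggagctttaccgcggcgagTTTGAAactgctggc

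**Figure D2:**
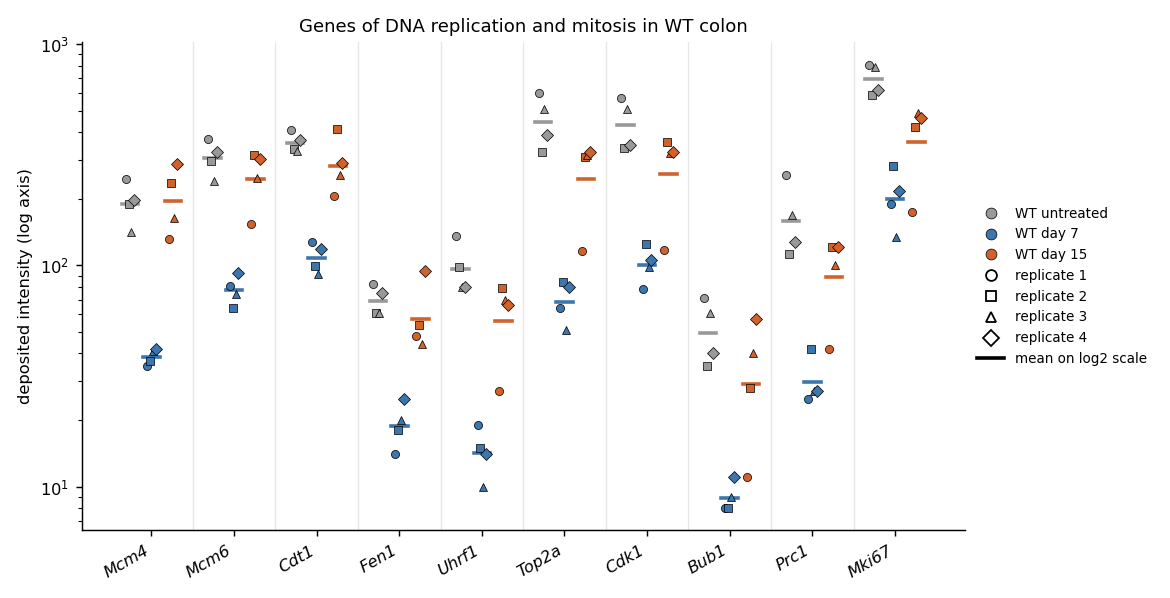
Deposited intensity (log axis) of 5 DNA replication genes, 4 called mitotic genes and Mki67 in the 4 untreated, 4 day 7 and 4 day 15 WT arrays, with bars at the mean on the log2 scale. Day 7 arrays lie below untreated arrays in every gene shown, and day 15 replicate 1 is the lowest day 15 array in all but Fen1 (44 in replicate 3).

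Controllers of the cell cycle and stem cell genes showed few calls. None of 20 genes of E2F and cell cycle control passed limma's adjusted test (median 0.26, 9 at an unadjusted p below 0.05), with the D-type cyclin Ccnd2 at -0.80 ± 0.26 (adjusted p = 0.0842) and the inhibitors Cdkn1b at 0.21 ± 0.12 and Cdkn1a at -0.07 ± 0.20. No p53 target of 18 passed either (median -0.02, 2 at an unadjusted p below 0.05). The stem cell receptor gene Lgr5 was near background, at 18, 16, 15 and 13 at day 7 and 15, 19, 18 and 14 at day 15, against 25 to 39 in untreated arrays, a difference of 0.06 ± 0.44. Of 16 intestinal stem cell genes, 2 rose: Slc12a2, a chloride transporter of crypt base cells (0.99 ± 0.25, adjusted p = 0.0218), and Smoc2 (1.45 ± 0.40, adjusted p = 0.0386). For Slc12a2, leaving out day 7 replicate 2 or 3 or day 15 replicate 2 or 3 ended the call (adjusted p = 0.0595 to 0.0783). The Smoc2 call ended without day 7 replicate 1, 2, 3 or 4 or day 15 replicate 2, 3 or 4 (adjusted p = 0.0534 to 0.224). Leaving out the squamous-rich arrays ended the call of Smoc2 (adjusted p = 0.158). These 2 calls became 0 without day 7 replicate 2 or 3 or day 15 replicate 2 or 3 and 1 without day 7 replicate 1 or 4 or day 15 replicate 4, and 1 without the squamous-rich arrays.

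Some acute-phase and antimicrobial genes rose. Of 27 measured, 7 rose, none fell and 20 did not pass (median 0.83, 22 positive). Saa3, an inflammatory serum amyloid made locally in tissue, was at 15, 12, 23 and 16 at day 7 and 789, 1131, 144 and 8698 at day 15, with 11 to 14 in untreated arrays. Every day 15 array was far above every day 7 array, and the day 15 arrays spread widely. The log2 difference was 5.87 ± 0.89 (adjusted p = 0.000217). The day 7 level of Saa3, as of Lrg1, is near the median of all probe sets, so the size of these differences has no exact fold behind it. Lrg1, a secreted glycoprotein induced by STAT3, was at 15, 12, 24 and 19 at day 7 and 185, 543, 203 and 1146 at day 15 and rose by 4.37 ± 0.51 (adjusted p = 2.84e-06). Serpina3n, a protease inhibitor of the acute phase, was at 33, 26, 61 and 28 at day 7 and 486, 618, 193 and 3514 at day 15 and rose by 4.07 ± 0.75 (adjusted p = 0.00173). These 3 calls held in all 8 fits and without the squamous-rich arrays. Haptoglobin, Hp, which binds free hemoglobin, was at 23, 15, 21 and 17 at day 7 and 104, 352, 48 and 3317 at day 15 and rose by 3.75 ± 0.88 (adjusted p = 0.0139). Its call ended without day 15 replicate 4 (adjusted p = 0.0986), the brightest array. Retnlb, a bactericidal product of goblet cells, was at 51, 121, 325 and 157 at day 7 and 905, 2813, 2825 and 704 at day 15, so that all day 15 arrays were above all day 7 arrays, which in turn were above the untreated 8 to 18. It rose by 3.39 ± 0.74 (adjusted p = 0.00848), in all 8 fits, though not without the squamous-rich arrays (adjusted p = 0.0959). Hp did not pass without the squamous-rich arrays (adjusted p = 0.0858). The lectin genes Reg3b and Reg3g, which act against bacteria at the epithelial surface, had 2.19 ± 0.99 and 0.49 ± 0.56 and did not pass (adjusted p = 0.235 and 0.701). The neutrophil list, whose level was highest in the same day 15 replicate 4, is given below, and its part in these rises was not tested.

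Some targets of IL-6 family cytokines rose, while Il6 and Il11 did not pass. These cytokines signal through the shared receptor gp130 to the transcription factor STAT3, and Socs3 is the feedback inhibitor that STAT3 induces. Of 16 measured genes of the family and its targets, 5 rose, none fell and 11 did not pass (median 0.82). Socs3 was at 18, 22, 12 and 14 at day 7 and 122, 181, 128 and 597 at day 15, against 14 to 25 in untreated arrays, with every day 15 array far above every day 7 array. The rise was 3.56 ± 0.49 (adjusted p = 6.34e-05), and it held in all 8 fits and without the squamous-rich arrays. Osmr, the receptor of oncostatin M, was at 42, 25, 37 and 22 at day 7 and 150, 124, 50 and 596 at day 15 and rose by 2.18 ± 0.53 (adjusted p = 0.0182). The call of Osmr was lost without day 7 replicate 2 or 4 or day 15 replicate 4 (adjusted p = 0.0635 to 0.131). Il6 was at 8, 9, 8 and 9 at day 7 and 10, 10, 8 and 291 at day 15 and Il11 at 14, 15, 13 and 15 at day 7 and 25, 20, 15 and 434 at day 15, so that day 15 replicate 4 alone lay far above the others. Their differences were 1.32 ± 0.57 and 1.53 ± 0.59 (adjusted p = 0.213 and 0.154), and Stat3 itself had 0.52 ± 0.18 (adjusted p = 0.0974). Lrg1, Serpina3n and Timp1 were the others of the 5, which became 3 without day 7 replicate 2 or day 15 replicate 4 and 8 without day 15 replicate 3, and 3 without the squamous-rich arrays. The call of Osmr ended without the squamous-rich arrays (adjusted p = 0.0686). The STAT motif TTCNNNGAA was in the promoter of 1 of the 14 members with a promoter (7.1%). The share was 8.76% of the 13605 tested genes with a promoter.

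IL-17 and IL-1 signalling were represented by few calls. The cytokines IL-17A and IL-17F, made mainly by lymphocytes, act on epithelium through the receptor subunits Il17ra and Il17rc. Il17a was near background on all arrays, at 10, 12, 10 and 9 at day 7 and 13, 9, 11 and 16 at day 15 (0.17 ± 0.15, adjusted p = 0.59). Il17rc had 340, 515, 373 and 425 at day 7 and 301, 257, 341 and 109 at day 15, with overlap between the days, and -0.85 ± 0.57 did not pass (adjusted p = 0.456). Il17ra had 0.49 ± 0.26 (adjusted p = 0.327). Of 12 IL-17 cytokines and receptors, 1 fell: Il17re, the epithelial receptor of IL-17C, with a difference of -0.87 ± 0.23 (adjusted p = 0.033). For Il17re, leaving out day 7 replicate 1, 2 or 4 or day 15 replicate 2 or 4 ended the call (adjusted p = 0.0586 to 0.194). Of 27 genes that IL-17 is known to induce, 5 rose, none fell and 22 did not pass (median 1.11). Steap4, a metal reductase, was at 78, 22, 43 and 42 at day 7 and 178, 272, 147 and 1347 at day 15 and rose by 2.72 ± 0.57 (adjusted p = 0.00666), and the call ended without day 15 replicate 4 (adjusted p = 0.0504). Others of the 5, Saa3, Duoxa2, Mmp3 and Mmp13, are described with their own groups. These 5 calls became 2 without day 15 replicate 4 and 10 without day 15 replicate 3. Leaving out the squamous-rich arrays ended the call of Il17re (adjusted p = 0.0786). Interleukin 1 beta, Il1b, a cytokine of activated myeloid cells, was at 15, 24, 30 and 16 at day 7 and 251, 340, 79 and 978 at day 15 and was the sole called gene of 18 of the IL-1 family. It rose by 3.67 ± 0.84 (adjusted p = 0.0127), and the call ended without day 15 replicate 4 (adjusted p = 0.0774). That 1 call became 0 without day 15 replicate 4 and 3 without day 15 replicate 3, and 2 without the squamous-rich arrays.

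**Figure D3:**
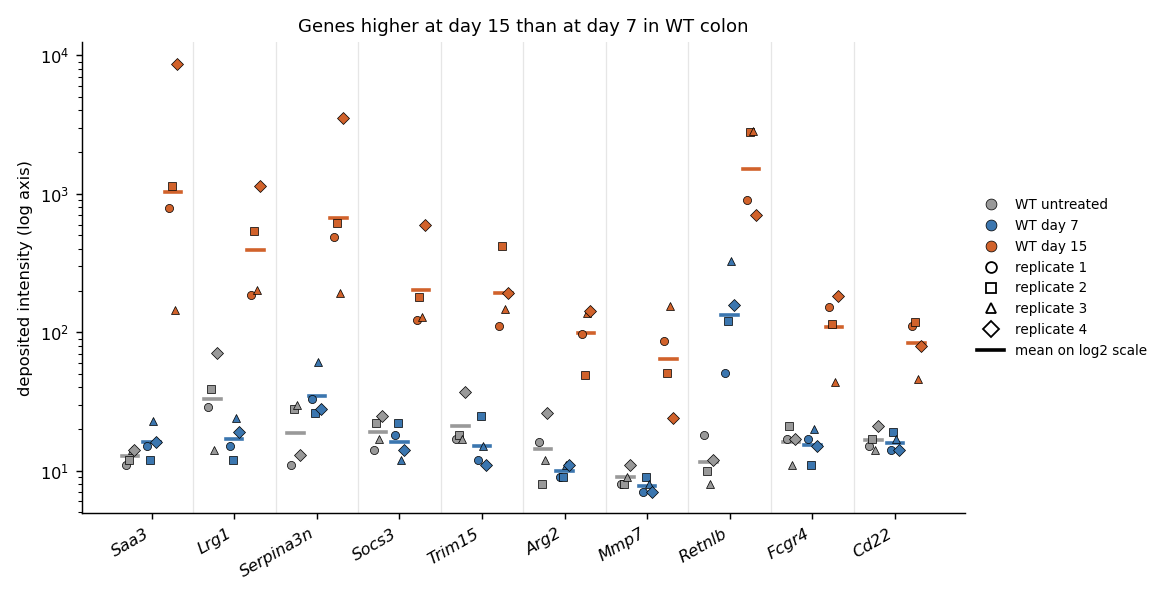
Deposited intensity (log axis) of 10 genes that rose, in the 4 untreated, 4 day 7 and 4 day 15 WT arrays, with bars at the mean on the log2 scale. In each gene shown, the 4 day 15 arrays lie above the 4 day 7 arrays, and replicate 4 is the highest day 15 array for Saa3, Lrg1, Serpina3n, Socs3, Arg2 and Fcgr4. The largest rises were chosen among called genes whose days did not overlap.

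Genes of other roles rose too. Trim15, a tripartite motif protein, was at 12, 25, 15 and 11 at day 7 and 111, 419, 147 and 192 at day 15 and rose by 3.54 ± 0.47 (adjusted p = 3.55e-05). Arg2, the mitochondrial arginase, was at 9, 9, 11 and 11 at day 7 and 97, 49, 138 and 142 at day 15 and rose by 3.19 ± 0.49 (adjusted p = 0.000267). Mmp7 or matrilysin, a protease of epithelial cells and a Wnt target, was at background on all day 7 arrays, at 7, 9, 8 and 7 at day 7 and 87, 51, 155 and 24 at day 15, and rose by 2.86 ± 0.45 (adjusted p = 0.000381). It was the only called gene of 20 Wnt targets (median 0.10), while 1.78% of all genes rose. Chrdl2, a secreted antagonist of bone morphogenetic proteins, was at 14, 23, 21 and 18 at day 7 and 131, 198, 107 and 713 at day 15 and rose by 3.37 ± 0.72 (adjusted p = 0.00708). The peptide hormone gene Adm rose by 1.43 ± 0.25 and the prostaglandin E2 receptor Ptger4 by 0.85 ± 0.15, with adjusted p = 0.00119 and 0.00139. Calls of these 6 genes held in all 8 fits, and all but that of Adm (adjusted p = 0.0653) without the squamous-rich arrays. Of 9 epithelial oxidase and peroxidase genes, 2 rose: Duoxa2, which matures the hydrogen peroxide source DUOX2, from near background at 7, 10, 10 and 9 at day 7 and 18, 15, 14 and 16 at day 15 (0.72 ± 0.17, adjusted p = 0.0155), and the glutathione peroxidase Gpx2 (0.77 ± 0.17, adjusted p = 0.0094). The Duoxa2 call ended without day 7 replicate 1 (adjusted p = 0.0622). The call of Gpx2 was lost without day 7 replicate 1 or day 15 replicate 2 (adjusted p = 0.0515 to 0.0602). Duoxa2 and Gpx2 did not pass without the squamous-rich arrays (adjusted p = 0.101 to 0.181).

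Some transcripts of monocytes and macrophages rose. Of 35 measured, 13 rose, none fell and 22 did not pass (median 1.50, 34 positive), and 21 had all day 15 arrays above all untreated arrays. The summed intensity of the list was 11828 to 17429 at day 7 and 17931 to 38816 at day 15. Fcgr4, an activating IgG receptor of monocytes and neutrophils, was at 17, 11, 20 and 15 at day 7 and 153, 115, 44 and 183 at day 15 and rose by 2.73 ± 0.48 (adjusted p = 0.00119). Ly6c1, a member of the Ly6C family found on inflammatory monocytes and on endothelium, was at 427, 227, 595 and 392 at day 7 and 1211, 1386, 820 and 2307 at day 15 and rose by 1.77 ± 0.27 (adjusted p = 0.000217), though its probe set may also bind its near-identical neighbour Ly6c2. Lysozyme M, Lyz2, was at 688, 484, 1691 and 889 at day 7 and 3304, 2023, 1673 and 2790 at day 15, with day 7 replicate 3 above day 15 replicate 3, and rose by 1.50 ± 0.29 (adjusted p = 0.00308). These 3 calls held in all 8 fits, and without the squamous-rich arrays Lyz2 alone of them did not pass (adjusted p = 0.0653). The endotoxin receptor Cd14 rose by 1.53 ± 0.38 (adjusted p = 0.0214). For Cd14, leaving out day 7 replicate 1 or 3 or day 15 replicate 2 or 4 ended the call (adjusted p = 0.051 to 0.124). The call of Cd14 ended without the squamous-rich arrays (adjusted p = 0.0908). The 13 calls became 4 without day 15 replicate 4, 5 without day 7 replicate 1 or 2 or day 15 replicate 1 or 2, 6 without day 7 replicate 4 and 20 without day 15 replicate 3, and 3 without the squamous-rich arrays.

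Complement genes, many of them made by macrophages and stromal cells, rose in part. Of 16 measured, 8 rose, none fell and 8 did not pass (median 1.25). C4b, a central component of the classical pathway, was at 278, 143, 212 and 158 at day 7 and 1194, 1051, 363 and 2465 at day 15 and rose by 2.37 ± 0.52 (adjusted p = 0.0086), and the protease C1ra was at 91, 56, 103 and 75 at day 7 and 360, 309, 139 and 756 at day 15 and rose by 1.93 ± 0.43 (adjusted p = 0.0104). Both calls ended without day 15 replicate 4 alone, at adjusted p = 0.06 and 0.0727. The C1q chains C1qa, C1qb and C1qc, products of tissue macrophages, rose by 1.71 ± 0.46, 1.91 ± 0.53 and 1.61 ± 0.44 (adjusted p = 0.0362, 0.039 and 0.0381). At 115, 84, 390 and 221 at day 7 and 748, 561, 283 and 968 at day 15, C1qa overlapped between the days, with day 7 replicate 3 bright and day 15 replicate 3 dim. Each of the 3 calls ended without day 7 replicate 1, 2 or 4 and without day 15 replicate 1, 2 or 4, with adjusted p from 0.059 to 0.173. Leaving out the squamous-rich arrays ended the calls of C1qa, C1qb and C1qc (adjusted p = 0.103 to 0.144). The 8 calls became 0 without day 15 replicate 4, 2 without day 7 replicate 1 or 4 or day 15 replicate 1 or 2 and 3 without day 7 replicate 2, and 2 without the squamous-rich arrays.

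Some genes of B cells and of T cells rose. Of 19 B cell genes, 5 rose and none fell (median 1.22, 18 positive), and 15 had all day 15 arrays above all untreated arrays. Cd22, an inhibitory B cell receptor, was at 14, 19, 17 and 14 at day 7 and 110, 119, 46 and 79 at day 15 and rose by 2.27 ± 0.50 (adjusted p = 0.00848). Bank1, a B cell scaffold protein, was at 12, 10, 19 and 11 at day 7 and 139, 194, 75 and 112 at day 15 and rose by 3.15 ± 0.69 (adjusted p = 0.00848). Both calls held in all 8 fits but not without the squamous-rich arrays (adjusted p = 0.0959 and 0.0858). The differences of Cd22 and Bank1 in that fit were 2.07 and 2.99. Btla, an inhibitory receptor of B and T cells, rose by 2.77 ± 0.65, the antigen receptor chain Cd79b by 2.47 ± 0.63 and the B cell coactivator Pou2af1 by 2.20 ± 0.57 (adjusted p = 0.0145, 0.0238 and 0.0288). The Btla call ended without day 7 replicate 2 or day 15 replicate 4 (adjusted p = 0.0508 to 0.0535). The call of Cd79b was lost without day 7 replicate 1 or 2 or day 15 replicate 1 or 2 (adjusted p = 0.0665 to 0.0833). For Pou2af1, leaving out day 7 replicate 1, 2 or 4 or day 15 replicate 1, 2 or 4 ended the call (adjusted p = 0.0574 to 0.103). CD20, Ms4a1, was at 14, 9, 77 and 23 at day 7 and 353, 372, 205 and 132 at day 15 with no overlap, and its 3.30 ± 0.98 missed the threshold (adjusted p = 0.0576). The 5 calls became 2 without day 7 replicate 2 and 3 without day 7 replicate 1 or day 15 replicate 1, 2 or 4, and 0 without the squamous-rich arrays. Of 18 T cell genes, 2 rose (median 0.26). The CD3 chain Cd3d was at 10, 10, 18 and 14 at day 7 and 103, 41, 28 and 34 at day 15 and rose by 1.69 ± 0.41 (adjusted p = 0.0174). The Cd3d call ended without day 7 replicate 1 or 2 or day 15 replicate 1 (adjusted p = 0.0523 to 0.0819). Icos, a costimulator of helper T cells, rose by 1.29 ± 0.32 (adjusted p = 0.0205). The call of Icos was lost without day 7 replicate 2 or day 15 replicate 1 or 2 (adjusted p = 0.0659 to 0.074). Btla, Cd79b, Pou2af1, Cd3d and Icos did not pass without the squamous-rich arrays (adjusted p = 0.0692 to 0.114). The 2 calls became 0 without day 7 replicate 2 or day 15 replicate 1, 1 without day 7 replicate 1 or day 15 replicate 2 and 5 without day 15 replicate 3, and 0 without the squamous-rich arrays.

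Few genes of antigen presentation passed the test. All 10 genes of MHC class II had positive differences (median 0.97), and 2 rose. H2-Ob, a modulator of peptide loading in B cells, was at 9, 8, 14 and 11 at day 7 and 117, 95, 56 and 73 at day 15 and rose by 2.87 ± 0.66 (adjusted p = 0.0122), in all 8 fits, though not without the squamous-rich arrays (adjusted p = 0.104). Ciita, the activator of class II genes, rose from near background by 1.01 ± 0.28 (adjusted p = 0.0428). For Ciita, leaving out day 7 replicate 1, 2, 3 or 4 or day 15 replicate 1 or 2 ended the call (adjusted p = 0.0751 to 0.134). The 2 calls became 1 without day 7 replicate 1, 2, 3 or 4 or day 15 replicate 1 or 2, and 0 without the squamous-rich arrays. The call of Ciita ended without the squamous-rich arrays (adjusted p = 0.185). The invariant chain Cd74 was at 222, 167, 397 and 220 at day 7 and 959, 949, 462 and 280 at day 15, lowest at day 15 in replicate 4, and its 1.24 ± 0.46 did not pass (adjusted p = 0.141). Among 24 genes of the interferon gamma response, the classical MHC gene H2-D1 was the 1 that rose, against 1.78% of all genes. At 3094, 2987, 3283 and 3000 at day 7 and 4970, 4547, 4118 and 4328 at day 15, all of its day 15 arrays were above all day 7 arrays, and the rise of 0.58 ± 0.13 (adjusted p = 0.00978) held in all 8 fits, though not without the squamous-rich arrays (adjusted p = 0.0826). Its probe set may bind other class I genes of near-identical sequence. None of 24 genes of the type I interferon response passed in limma (median 0.08), and none had an unadjusted p below 0.05.

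Neutrophil transcripts spread widely between the arrays of a day, and 1 passed the test. Of 21 neutrophil markers, 20 had positive differences (median 1.41, 0.53 without day 15 replicate 4), and 1 rose. The summed intensity was 696 to 3290 at day 7, 2111 to 4882 in day 15 replicates 1 to 3 and 18948 in replicate 4. Day 7 replicates 1 and 4, the squamous-rich arrays of that day, had more of it (3290 and 1521) than replicates 2 and 3 (869 and 696). S100a8 and S100a9, with 4.32 ± 1.32 and 3.22 ± 1.25, did not pass (adjusted p = 0.0682 and 0.155), although S100a8 did without the squamous-rich arrays (adjusted p = 0.00038). The called marker was Cd177, a surface glycoprotein of neutrophils that colon epithelium expresses too, at 370, 320, 178 and 286 at day 7 and 834, 1112, 979 and 389 at day 15 (1.41 ± 0.37, adjusted p = 0.0311). Here replicate 4 was the lowest day 15 array, unlike in the other markers named. The Cd177 call ended without day 7 replicate 2, 3 or 4 or day 15 replicate 1, 2 or 3 (adjusted p = 0.0542 to 0.101). The 1 call of the list became 0 without day 7 replicate 2, 3 or 4 or day 15 replicate 1 or 2, 2 without day 7 replicate 1 and 4 without day 15 replicate 3, and 2 without the squamous-rich arrays. Leaving out the squamous-rich arrays ended the call of Cd177 (adjusted p = 0.0538). None of 8 neutrophil-attracting chemokine genes passed in limma (2 at an unadjusted p below 0.05), with Cxcl2 at 20, 16, 15 and 17 at day 7 and 49, 101, 28 and 1242 at day 15 (adjusted p = 0.102). Cxcl13, which attracts B cells, was at 114, 75, 489 and 265 at day 7 and 1452, 1543, 616 and 4931 at day 15 without overlap, and its 3.09 ± 0.91 missed the threshold (adjusted p = 0.0576).

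Matrix proteases and matrix genes were highest in day 15 replicate 4, with summed intensities of 15404 and 61283 against 1411 to 3251 and 13656 to 24888 in the other day 15 arrays. Of 16 metalloproteinase and inhibitor genes, 5 rose, none fell and 11 did not pass (median 1.54, 0.40 without day 15 replicate 4). The stromelysin Mmp10 was at 15, 18, 41 and 19 at day 7 and 236, 340, 42 and 2838 at day 15 and rose by 3.76 ± 0.80 (adjusted p = 0.00716), and the collagenase Mmp13 at 19, 9, 37 and 17 at day 7 and 158, 162, 33 and 1904 at day 15 rose by 3.34 ± 0.73 (adjusted p = 0.00814). Without day 15 replicate 4 these calls ended, at adjusted p = 0.0535 and 0.056. Mmp3, another stromelysin, rose by 2.98 ± 0.79 and the inhibitor Timp1 by 2.79 ± 0.69 (adjusted p = 0.033 and 0.0189). The call of Mmp3 was lost without day 7 replicate 1, 2 or 4 or day 15 replicate 2 or 4 (adjusted p = 0.0714 to 0.205). For Timp1, leaving out day 7 replicate 1 or 2 or day 15 replicate 2 or 4 ended the call (adjusted p = 0.0515 to 0.137). Mmp7 was the fifth, and the 5 calls became 1 without day 15 replicate 4 and 3 without day 7 replicate 1 or 2 or day 15 replicate 2, and 1 without the squamous-rich arrays. Of 27 collagen and matrix genes, 4 rose (median 1.12, 0.45 without day 15 replicate 4), among them the basement membrane collagen Col18a1 (2.42 ± 0.58, adjusted p = 0.0163), the cross-linking enzyme Lox (2.99 ± 0.75, 0.0224) and the fibrillar collagen Col3a1 (1.27 ± 0.32, 0.023). The Col18a1 call ended without day 7 replicate 2 or day 15 replicate 4 (adjusted p = 0.0681 to 0.117). The call of Lox was lost without day 7 replicate 1, 2 or 4 or day 15 replicate 4 (adjusted p = 0.0505 to 0.159). For Col3a1, leaving out day 7 replicate 2 or 4 or day 15 replicate 2 or 4 ended the call (adjusted p = 0.0537 to 0.143). The 4 calls became 0 without day 7 replicate 2 or day 15 replicate 4, 1 without day 7 replicate 4, 2 without day 15 replicate 2 and 12 without day 15 replicate 3, and 1 without the squamous-rich arrays. Of 19 endothelial genes, the receptor Kdr and the clotting factor Vwf rose (1.26 ± 0.32 and 1.44 ± 0.36, adjusted p = 0.0216 and 0.0218). The Kdr call ended without day 7 replicate 1 or 2 or day 15 replicate 4 (adjusted p = 0.068 to 0.155). The call of Vwf was lost without day 7 replicate 2 or day 15 replicate 4 (adjusted p = 0.0817 to 0.155). The 2 calls became 0 without day 7 replicate 2 or day 15 replicate 4, 1 without day 7 replicate 1 and 7 without day 15 replicate 3, and 0 without the squamous-rich arrays. Icam1, an adhesion molecule that NF-kB induces, rose by 1.79 ± 0.41 (adjusted p = 0.0131), and its call ended without day 15 replicate 4 (adjusted p = 0.0836). Mmp10, Mmp13, Mmp3, Timp1, Col18a1, Lox, Kdr, Vwf and Icam1 did not pass without the squamous-rich arrays (adjusted p = 0.0653 to 0.178). The lipoprotein lipase Lpl was at 48, 24, 51 and 44 at day 7 and 247, 413, 171 and 553 at day 15 and rose by 2.77 ± 0.61 (adjusted p = 0.00848), in all 8 fits and without the squamous-rich arrays. It was the 1 called gene of 7 adipocyte markers, while the fat hormone Adipoq had 2.42 ± 0.90 (adjusted p = 0.137).

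Among the falls were genes of the circadian output. The clock activators drive Dbp, Tef, Per3 and Ciart from E-boxes, and Nfil3 opposes Dbp and Tef at shared D-box sites. Of 16 clock genes, 4 fell and 1 rose (median -0.58). Dbp was at 543, 640, 434 and 480 at day 7 and 209, 68, 142 and 95 at day 15, each day 15 array below each day 7 array, and had a difference of -2.13 ± 0.39 (adjusted p = 0.00159). Ciart, a repressor of the clock, was at 115, 102, 90 and 112 at day 7 and 44, 14, 27 and 18 at day 15 with a difference of -2.25 ± 0.43 (adjusted p = 0.00228). Per3 was at 217, 181, 83 and 155 at day 7 and 77, 30, 57 and 44 at day 15 with -1.72 ± 0.36 (adjusted p = 0.00596). These 3 calls held in all 8 fits, and those of Dbp and Ciart also without the squamous-rich arrays (adjusted p = 0.0193 and 0.0103, 0.0928 for Per3). Tef was at 726, 569, 438 and 536 at day 7 and 326, 180, 298 and 271 at day 15 with -1.08 ± 0.27 (adjusted p = 0.0218), and Nfil3, which rose, was at 23, 23, 30 and 24 at day 7 and 60, 56, 43 and 196 at day 15 with 1.40 ± 0.38 (adjusted p = 0.0334). For Tef, leaving out day 7 replicate 1 or 2 or day 15 replicate 2 or 4 ended the call (adjusted p = 0.0554 to 0.0884). The Nfil3 call ended without day 7 replicate 1, 2 or 4 or day 15 replicate 2 or 4 (adjusted p = 0.0522 to 0.216). The calls of Tef and Nfil3 ended without the squamous-rich arrays (adjusted p = 0.171 to 0.182). Bhlhe40 and Nr1d2 did not pass (-0.01 ± 0.20 and -0.51 ± 0.21, adjusted p = 0.99 and 0.174). The labels give no hour of sampling, so the day and the hour cannot be told apart. The 5 calls became 3 without day 7 replicate 1 or day 15 replicate 2 or 4, and 2 without the squamous-rich arrays. The E-box CACGTG was in 5 of the 14 promoters (35.7%), against 10.2% of the 13605 tested genes with a promoter. The D-box (TTATGTAA or TTACGTAA) was in 1 of 14 (7.1%), against 0.98%. Of the 5 called clock genes, 2 had the E-box and 1 the D-box. Both motifs were chosen after the values were seen. The 200 bases before the start of Ciart are shown as the case with 3 E-boxes, in capitals, with first bases at -116, -58 and -44. The gene as annotated reaches into this window.
Ciart, chr3:95882229-95882428, minus strand: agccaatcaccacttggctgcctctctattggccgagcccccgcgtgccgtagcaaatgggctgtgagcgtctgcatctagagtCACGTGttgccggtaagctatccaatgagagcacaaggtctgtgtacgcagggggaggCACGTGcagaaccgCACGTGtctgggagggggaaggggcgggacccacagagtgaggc

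The smallest p among the falls belonged to pyrimidine breakdown. Dpyd, the rate-limiting enzyme that degrades uracil and thymine, was at 162, 186, 140 and 179 at day 7 and 43, 40, 27 and 57 at day 15, against 139 to 332 in untreated arrays. The highest day 15 array was below every day 7 array by a wide margin, and the difference was -2.10 ± 0.22 (adjusted p = 9.63e-07), in all 8 fits and without the squamous-rich arrays (adjusted p = 6.8e-05). Upb1, which acts at the last step of the same pathway, was at 31, 118, 124 and 105 at day 7 and 21, 20, 35 and 13 at day 15, with day 7 replicate 1 inside the day 15 range, and had -2.02 ± 0.48 (adjusted p = 0.0152). The call of Upb1 was lost without day 7 replicate 2 or 3 or day 15 replicate 4 (adjusted p = 0.051 to 0.0804). Of the 10 pyrimidine genes, Tk1, the thymidine kinase of dividing cells, rose (1.14 ± 0.32, adjusted p = 0.0419), and the remaining 7 did not pass. For Tk1, leaving out day 7 replicate 1, 3 or 4 or day 15 replicate 2, 3 or 4 ended the call (adjusted p = 0.0595 to 0.151). Leaving out the squamous-rich arrays ended the call of Tk1 (adjusted p = 0.17). The 3 calls became 1 without day 7 replicate 3 or day 15 replicate 4.

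Other falls came from genes of several roles. Tppp and Tppp3, which stabilise microtubules, were at 168, 247, 254 and 234 at day 7 and 105, 34, 27 and 27 at day 15 and at 784, 714, 624 and 631 at day 7 and 267, 120, 110 and 198 at day 15, without overlap, and had -2.51 ± 0.44 and -2.04 ± 0.46 (adjusted p = 0.00119 and 0.0115). Aldh1a7, an aldehyde dehydrogenase, was at 374, 228, 365 and 353 at day 7 and 65, 52, 77 and 57 at day 15 with -2.41 ± 0.44 (adjusted p = 0.00153). Eci3, an isomerase of fatty acid oxidation, was at 45, 110, 91 and 110 at day 7 and 23, 24, 23 and 12 at day 15 with -2.12 ± 0.34 (adjusted p = 0.000392). The protease inhibitor Csta1 was at 737, 196, 212 and 344 at day 7 and 73, 66, 70 and 58 at day 15 with -2.31 ± 0.39 (adjusted p = 0.000812), and the matrix proteoglycan Optc at 237, 99, 92 and 141 at day 7 and 50, 27, 25 and 34 at day 15 with -2.11 ± 0.41 (adjusted p = 0.00306). For all 6, the 4 day 15 arrays lay below the 4 day 7 arrays and the calls held in all 8 fits, and without the squamous-rich arrays all but Optc passed (adjusted p = 0.0577). The largest falls were chosen among called genes whose days did not overlap, so the lack of overlap is no further result. Csta1 and Optc were highest in day 7 replicate 1, the richest of the 8 arrays in squamous transcripts. Serum albumin, Alb, was at 26, 59, 31 and 55 at day 7 and 9, 8, 9 and 8 at day 15, with 8 to 15 in untreated arrays, so that day 7 was the high group and day 15 lay at the untreated level. Its difference was -2.28 ± 0.40 (adjusted p = 0.00107), in all 8 fits. Of 13 pancreas and liver markers, Apoa2 was the other that fell (-0.73 ± 0.20, adjusted p = 0.0363). The Apoa2 call ended without day 7 replicate 1, 2, 3 or 4 or day 15 replicate 2 or 4 (adjusted p = 0.0536 to 0.154). Apoa2 did not pass without the squamous-rich arrays (adjusted p = 0.0653).

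**Figure D4:**
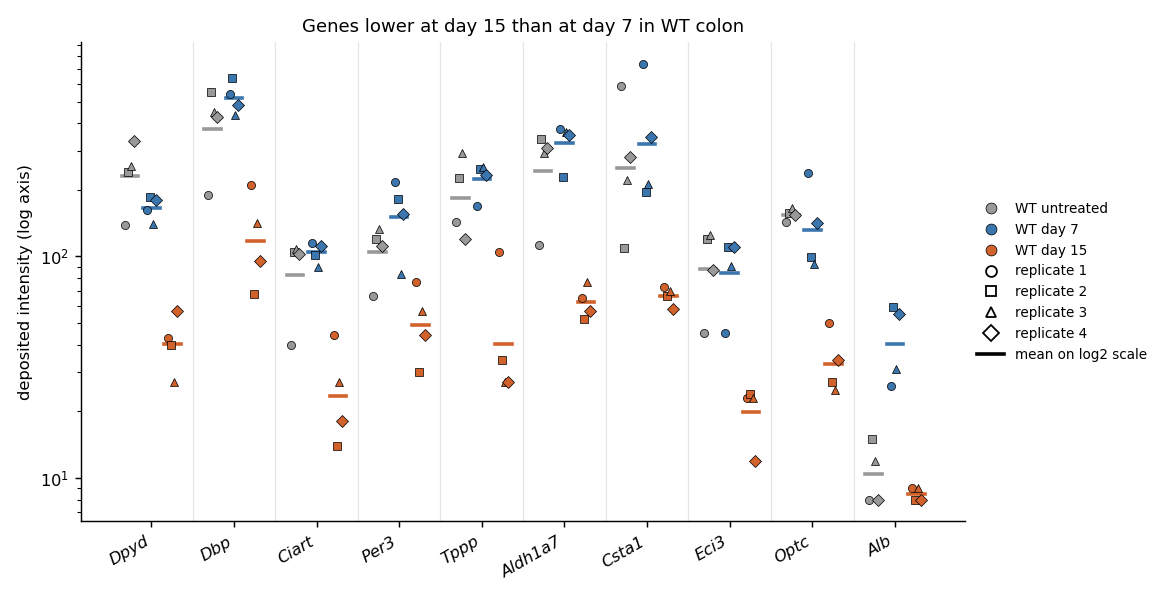
Deposited intensity (log axis) of 10 genes that fell, in the 4 untreated, 4 day 7 and 4 day 15 WT arrays, with bars at the mean on the log2 scale. In each gene shown, the 4 day 15 arrays lie below the 4 day 7 arrays, and for Alb the day 15 arrays (8 and 9) are at the untreated level while day 7 arrays (26 to 59) are above it. The largest falls were chosen among called genes whose days did not overlap.

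Few genes of muscle and of absorptive cells passed the test. All 14 smooth muscle genes had negative differences (median -0.77) and 1 fell, Pcp4, a calmodulin-binding peptide, at 2156, 189, 150 and 741 at day 7 and 214, 71, 69 and 70 at day 15 (-2.35 ± 0.59, adjusted p = 0.0218). The call of Pcp4 was lost without day 7 replicate 1 or 4 or day 15 replicate 2 or 4 (adjusted p = 0.0621 to 0.108). The summed intensity of the list was 29998 to 51902 at day 7, 14504 to 27554 at day 15 and 33147 to 41818 in untreated arrays. At day 7 the list sum (51902 and 36233) and Pcp4 were highest in replicates 1 and 4, the squamous-rich arrays of that day. Without the squamous-rich arrays the list median was -0.51 and no smooth muscle gene passed (adjusted p = 0.423 for Pcp4). Creatine kinase of muscle, Ckm, was the 1 called gene of 12 skeletal muscle markers, at 232, 48, 32 and 67 at day 7 and 30, 17, 17 and 25 at day 15 (-1.84 ± 0.39, adjusted p = 0.00708, in all 8 fits), while without the squamous-rich arrays its adjusted p was 0.073. Of 31 genes of absorptive colonocytes, 21 had negative differences (median -0.38) and 1 fell, against 1.11% of all genes. This was Slc20a1, a phosphate transporter, at 1117, 3171, 3799 and 3192 at day 7 and 1406, 825, 2024 and 768 at day 15 (-1.11 ± 0.31, adjusted p = 0.0425). For Slc20a1, leaving out day 7 replicate 2, 3 or 4 or day 15 replicate 2 or 4 ended the call (adjusted p = 0.125 to 0.198). That 1 call of the list became 0 without day 7 replicate 2, 3 or 4 or day 15 replicate 2 or 4 and 2 without day 7 replicate 1 or day 15 replicate 3, and 2 without the squamous-rich arrays. The carbonic anhydrases Car1 and Car2 had -0.94 ± 0.36 and -0.55 ± 0.24 and did not pass (adjusted p = 0.153 and 0.225). Of 28 genes of xenobiotic metabolism, 23 had negative differences (median -0.54) and 1 fell, against 1.11% of all genes. This was the sulfotransferase Sult1c2, at 520, 554, 476 and 497 at day 7 and 170, 145, 148 and 52 at day 15 (-2.15 ± 0.49, adjusted p = 0.0117). The Sult1c2 call ended without day 15 replicate 4 (adjusted p = 0.0814). The peptide transporter Slc15a2 fell as well (-2.32 ± 0.62, adjusted p = 0.0329). The call of Slc15a2 was lost without day 7 replicate 1, 2 or 4 or day 15 replicate 2 or 4 (adjusted p = 0.068 to 0.106). The calls of Sult1c2 and Slc15a2 ended without the squamous-rich arrays (adjusted p = 0.0982 to 0.126). Goblet cell genes other than Retnlb did not pass, with Tff3, the trefoil peptide of mucus, at -0.08 ± 0.25, the mucus lectin Zg16 at 0.04 ± 0.31 and Clca1 at -0.54 ± 0.48 (adjusted p = 0.903, 0.978 and 0.602). In limma no gene passed among 23 of the respiratory chain (median -0.13, 2 at an unadjusted p below 0.05), 16 of mitochondrial fat oxidation (-0.30, 6), 17 of tight junctions (-0.14, 5) or 22 of ribosome biogenesis (0.03, 3).

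**Figure D5:**
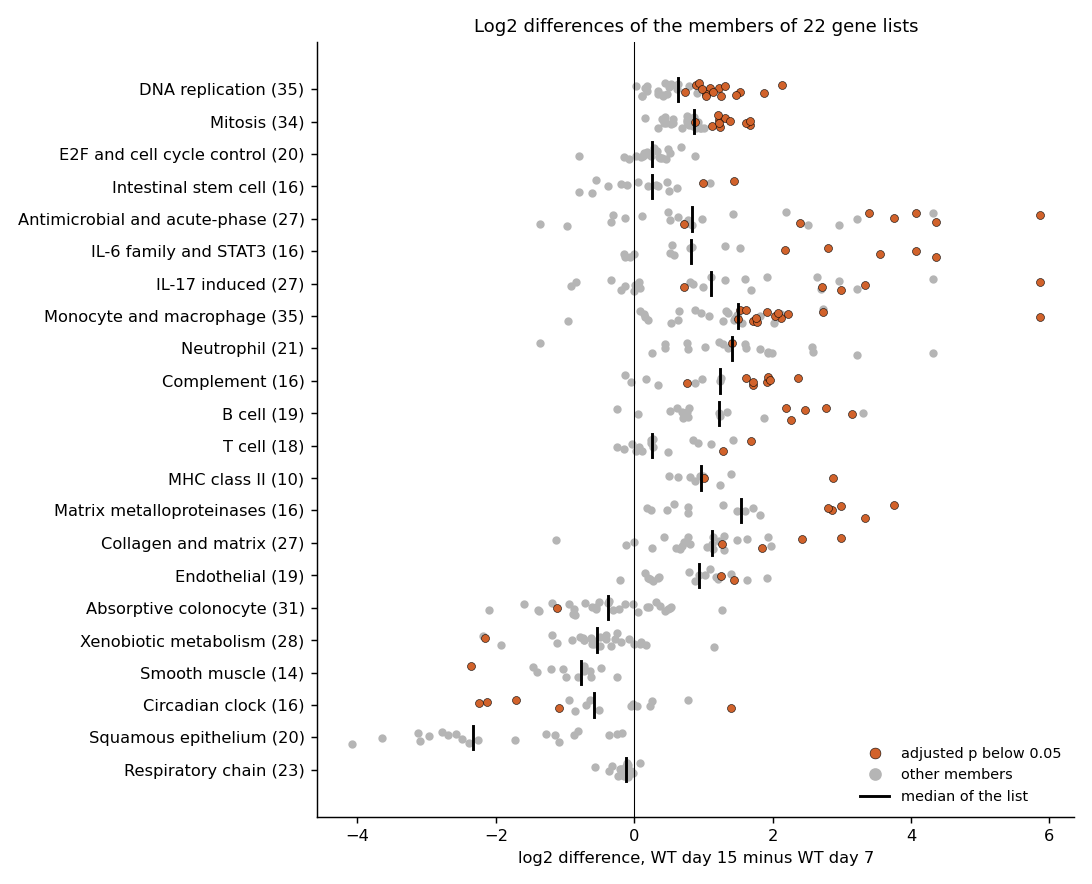
Log2 differences of day 15 over day 7 (horizontal axis) of the members of 22 gene lists (rows, with the number of measured genes), with called genes in orange, others in grey and the median of each list as a bar. All members of the DNA replication and mitosis lists lie to the right of 0, and all members of the smooth muscle and squamous lists lie to the left of it.

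Whether the change differed without Il17rc was asked by subtracting the change in KO mice from that in WT mice. Of 17097 genes, 12 passed (0.0702%), against 2005 at an unadjusted p below 0.05, and 1 of the 12, Dlx2, was also called in WT. In 1 set of simulated data this test gave a larger share of false calls than its threshold allows. No member of the groups above was among them other than Oas3, of the type I interferon list. In the 8 genes with the smallest p, no WT difference passed the test, with Commd6 at -0.31 ± 0.12 (adjusted p = 0.163) the largest. Med27, a subunit of the Mediator complex, was at 47, 55, 70 and 50 at day 7 and 49, 65, 57 and 71 at day 15 in WT and at 35, 29, 27 and 29 at day 7 and 93, 97, 73 and 80 at day 15 in KO. All KO day 15 arrays lay above all KO day 7 arrays while the WT arrays overlapped, and WT minus KO was -1.26 ± 0.21 (adjusted p = 0.0133). Commd6, a COMM domain protein, had WT minus KO at -1.04 ± 0.17 (adjusted p = 0.0129). The splicing factor gene Cwc15 had -0.60 ± 0.11, the mitochondrial ribosomal gene Mrps23 -1.11 ± 0.22, the proteasome subunit Psma1 -0.66 ± 0.13 and the RNA sensor Oas3 -1.44 ± 0.28. The tetraspanin Cd151 had 0.64 ± 0.13 and the oxygen sensor Egln1 0.64 ± 0.12, and the adjusted p of these 6 genes was 0.0306 to 0.0429. Commd6 and Med27 passed in 13 of the 16 fits that left out 1 array of the 4 groups, and the other 6 genes in 4 to 7. The Il17rc level of the array labelled KO day 7 replicate 1 was 331, as in WT, which goes against its label, and that of replicate 2 was 44. Both are squamous-rich. The 12 calls became 0 without WT day 7 replicate 3, KO day 7 replicate 3 or KO day 15 replicate 2, with 1497 to 1891 genes at an unadjusted p below 0.05 in limma. They became 2 or 3 without WT day 7 replicate 2 or 4, WT day 15 replicate 1 or 4, KO day 7 replicate 2 or 4 or KO day 15 replicate 1, and 7 without WT day 15 replicate 2 or 3. They became 41 without KO day 15 replicate 3, 80 without KO day 7 replicate 1 and 168 without WT day 7 replicate 1. Without both of these KO day 7 arrays 33 genes passed, but Oas3 and Dlx2 did not (adjusted p = 0.0606 and 0.0536), and without the day 7 arrays that lay between the others 1 passed.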

How the data were processed

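Total RNA of WT and KO colon was hybridised to Affymetrix HT MG-430 PM arrays, per the labels' protocols. The authors deposited 1 linear intensity per probe set and array, in whole numbers. How they summarised and normalised the probes is not given in the sources used here. Of 45037 probe sets, 28898 named 1 gene, 551 several and 15588 none. Each of 17097 genes was represented by its brightest probe set, by the mean of all 36 arrays. Intensities plus 1 were taken to log2 and quantile normalised, and 8 group means were fitted over 36 arrays with limma 3.58.1 in R 4.3.3 (eBayes with trend, Benjamini-Hochberg, threshold 0.05). All groups share 1 estimate of the spread. The procedure was tested on 1 set of simulated data. The share of false calls there lay below the threshold for day 15 against day 7 and above it for the genotype difference. Its noise was independent, with 1 spread per gene for all groups, as the fit assumes. It could thus not show what happens where groups spread unequally, and 1 set does not fix either share.

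The comparison, members and gene lists were chosen with earlier results of these data known. Named genes were the 12 largest non-overlapping rises and falls with a group mean of at least 32, up to 5 called and 3 uncalled genes of a list, a set of single genes and 8 genotype differences. The text names a part of them. Lists share members. Promoters are those of RefSeq on GRCm38.p6. Alternatives are given in the closing section.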

Additional observations from a re-analysis of the deposited data

Results flagged for a closer look

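Among 252 groups of 4 arrays, those of the 126 genes described in both WT groups, 23 held an array whose gap to the nearest other array was above Dixon's 95% critical value as a share of the whole range, both taken on the log2 scale of the intensity plus 1, where chance flags about 1 in 20 groups. Day 15 replicate 1 was low for genes of dividing cells, at 27 for Uhrf1 (66 to 79 in the other arrays of its day), 116 for Top2a (309 to 326), 117 for Cdk1 (323 to 362), 174 for Mki67 (424 to 491) and 100 for Ccna2 (278 to 334). It was high for Tppp, at 105 (27 to 34), and Pcp4, at 214 (69 to 71). Day 15 replicate 4 was high for Il6, at 291 (8 to 10), Il11, at 434 (15 to 25), and Il17ra, at 188 (90 to 96). The same array was low for Eci3, at 12 (23 to 24), Sult1c2, at 52 (145 to 170), and Tff3, at 4555 (8529 to 9406). Day 7 replicate 1 was low for Slbp, at 287 (417 to 432), Upb1, at 31 (105 to 124), Slc20a1, at 1117 (3171 to 3799), and Zg16, at 6712 (8778 to 9177). Day 7 replicate 2 stood apart for Prc1, at 42 (25 to 27), Aldh1a7, at 228 (353 to 374), Oas3, at 16 (14 in each other array), and Icos, at 12 (14 in each). Day 7 replicate 3 stood apart for Nfil3, at 30 (23 to 24), and Dlx2, at 8 (7 in each). Oas3, Icos and Dlx2 lay near background in these groups.

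The change from day 7 to day 15 differed between WT and KO mice in limma's interaction test, as WT change minus KO change, for Commd6 (-1.04 on the log2 scale), Med27 (-1.26), Cwc15 (-0.60), Egln1 (0.64), Oas3 (-1.44), Cd151 (0.64), Psma1 (-0.66), Mrps23 (-1.11) and Dlx2 (0.44). Over all alternatives the highest adjusted p of these genes was 0.247 to 0.568, and Oas3 and Dlx2 did not pass without the arrays labelled KO day 7 replicates 1 and 2 (adjusted p = 0.0606 and 0.0536), the first of which has Il17rc at 331, against its label. Dlx2 was named because it was the 1 such gene also called in WT, after its values were seen.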

How the results depend on the processing

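The count of 494 genes and its share of rises (61.5%) were recomputed under each alternative. No difference of a called gene that was described changed sign, but the majority of rises was lost without the squamous-rich arrays. The count was 71 with only the 8 WT arrays (69.0% rises), 1824 with array weights (51.0%), 231 with the title code's letter as a block (72.3%), 275 without the squamous-rich arrays (48.4%) and 891 with the squamous level as a covariate (50.2%). The share was 56.2% with a pseudocount of 16, 75.6% without normalization and 56.7% with the mean of all probe sets. Leaving out 1 array at a time gave 223 to 850 genes and 51.3 to 67.7% rises. Both of the following were chosen after seeing the data: without day 15 replicate 4 and the squamous-rich arrays, 155 genes passed (45.2% rises), and without the day 7 arrays that lie between the others, 238 passed. The 12 genes of the genotype difference became 2 with median centring, 30 without normalization, 28 with a mean intensity of at least 16, 5 with the mean of all probe sets, 798 with array weights, 348 without the squamous-rich arrays, 25 with the squamous covariate, 1 with the title code's number as a block, 33 without both arrays labelled KO day 7 with high Il17rc, 1 without the arrays between the others, and 0 to 168 when 1 array was left out. With the letter as a block it was 0 in limma, with 1500 genes at an unadjusted p below 0.05. Replicate numbers did not pair the arrays: residuals of same-numbered WT arrays correlated at -0.0865, 0.111, -0.0636 and 0.00908. The replicate block was fitted in WT on the 8 WT arrays alone, where 71 genes passed without it and 4 with it (50.0% rises). For the genotype difference it was fitted on the day 7 and day 15 arrays alone. There 0 genes passed, with 1283 at an unadjusted p below 0.05 in limma, and these arrays were not fitted without the block. Among values of single genes and lists, 7204 stayed on their side, 572 lost and 92 gained the threshold, and 19 moved. Without the squamous-rich arrays the median of the squamous list went from -2.33 to 0.01. The causes were not tested. Signals limit the rest: 34.7% of genes had a mean below 16 in both groups, and 97 called genes had a group mean below 16.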
